A study of Mus musculus with 16 samples.

Results

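The genes described are those of the insulin-like growth factor (IGF) axis: the binding protein genes Igfbp2, Igfbp3, Igfbp4, Igfbp5, Igfbp6 and Igfbp7, the ligand genes Igf1 and Igf2, and the receptor genes Igf1r and Igf2r. Every probe set that the platform annotation gives to 1 of these 10 symbols was taken, whatever its signal, which made 23 of the 22690 probe sets on the array. All 23 exceeded the limit for testing, a log2 signal above 4 on at least 2 of 16 arrays. RNA came from cultured mouse cells of small cell lung cancer, a neuroendocrine tumour, in 2 lines named 3583T3 and 3151T4, each grown from 1 dissociated tumour. In each line there were 4 kinds of cells with 2 arrays each. The first stably carried an MSCV retroviral vector with FLAG-tagged mouse Nfib complementary DNA and a neomycin resistance gene, selected with G418. The second carried an MSCV vector with Mycl1 (L-myc, current symbol Mycl) and a puromycin resistance gene, selected with puromycin, the third carried both (Nfib+Mycl1), and the control cells were not transfected. Transgene, vector and drug selection therefore cannot be told apart in any comparison with control.

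IGF1 and IGF2 are secreted growth factors that signal through the receptor tyrosine kinase IGF1R. IGF2R, the cation-independent mannose 6-phosphate receptor, takes IGF2 up and delivers it to lysosomes. The secreted IGF binding proteins hold the ligands outside the cell and release them when cut by proteases such as pappalysin 1. NFIB belongs to the nuclear factor I (NFI) transcription factors, which bind TTGGC and its reverse complement spaced 5 bases apart, or only 1 of these arms, and MYC family proteins bind the E-box CACGTG with their partner MAX.

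Promoter windows are shown for 4 binding protein genes with different patterns of response: Igfbp2 and Igfbp5, which fell in different lines, Igfbp7, which fell in both, and Igfbp6, which rose in 1. Each is the 250 bases before the annotated start, from the RefSeq annotation of GRCm38.p6, read 5′ to 3′ on the strand of the gene. Capitals mark TTGGCA, an NFI arm followed by A, or an E-box (CACGTG), searched on both strands.
Igfbp2, chr1:72824230-72824479, plus strand: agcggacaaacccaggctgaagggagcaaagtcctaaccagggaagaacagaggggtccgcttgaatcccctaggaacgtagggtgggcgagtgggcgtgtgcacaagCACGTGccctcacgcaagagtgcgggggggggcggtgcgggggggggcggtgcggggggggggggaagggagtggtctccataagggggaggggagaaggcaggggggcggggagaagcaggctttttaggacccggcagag
Igfbp5, chr1:72874866-72875115, minus strand: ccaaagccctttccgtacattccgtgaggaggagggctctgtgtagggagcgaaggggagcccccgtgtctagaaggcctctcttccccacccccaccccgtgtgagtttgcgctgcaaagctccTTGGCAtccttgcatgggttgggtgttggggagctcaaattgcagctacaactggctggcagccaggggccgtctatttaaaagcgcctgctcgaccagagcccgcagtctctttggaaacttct
Igfbp7, chr5:77408046-77408295, minus strand: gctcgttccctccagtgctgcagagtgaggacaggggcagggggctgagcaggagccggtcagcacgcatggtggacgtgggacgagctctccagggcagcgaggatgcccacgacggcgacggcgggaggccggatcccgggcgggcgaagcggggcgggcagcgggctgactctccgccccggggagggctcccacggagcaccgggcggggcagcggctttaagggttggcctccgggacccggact
Igfbp6, chr15:102143936-102144185, plus strand: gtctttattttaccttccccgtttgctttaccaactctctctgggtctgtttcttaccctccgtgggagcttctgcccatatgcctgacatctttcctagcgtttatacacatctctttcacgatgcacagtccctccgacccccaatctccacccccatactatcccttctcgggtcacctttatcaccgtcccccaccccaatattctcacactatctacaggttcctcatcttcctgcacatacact
The Igfbp2 window held 1 E-box, 142 bases before the start, and the Igfbp5 window 1 TTGGCA, 125 bases before the start. The windows of Igfbp7 and Igfbp6 held neither of these strings. The shorter arm TTGGC, which TTGGCA contains, was found in the Igfbp5 window at the same place and in the Igfbp7 window 21 bases before the start, and none of these 4 windows held the full NFI palindrome. Among all 32851 RefSeq windows of this length, 41.5% held TTGGC, 12.3% TTGGCA, 6.02% the E-box and 0.0365% the full NFI palindrome. Of the other members, Igf2r had 2 E-boxes, 48 and 7 bases before its start. A match describes the letters and is not evidence of binding. Igfbp2 (chr1:72824480-72852474) and Igfbp5 (chr1:72858065-72874865) are neighbours on opposite strands with their 3′ ends facing, 5590 bases apart.

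All values are log2 signals from GCRMA, a method that corrects background by probe sequence and normalizes arrays by quantiles. Its floor lies near log2 2, so that changes of dim genes are understated. A probe set was called changed at an adjusted p under 0.05 (limma, Benjamini-Hochberg over the 15799 probe sets tested). Array medians lay between 6.26 and 6.43, and the 2 arrays of a group correlated at 0.991 to 0.997. The labels do not say that these were separate cultures, so a p-value here reflects the scatter of these samples alone, possibly of technical origin, and the number of arrays limits the precision. All comparisons with control share the control arrays. In 2 arrays the Mycl signal (1422087_at) went against the label. It was high on 3583T3 Nfib replicate 2 (10.22) and close to control on 3583T3 Nfib+Mycl1 replicate 2 (2.67). Replicate 1 had 2.28 with Nfib and 11.05 with Nfib+Mycl1. All arrays of these 2 groups best matched an array of another group, as did 3151T4 Nfib+Mycl1 replicate 4. Whether the 2 contrary arrays were exchanged was not tested. Both were kept as labelled, and the main results that use them are also given without them. Nfib probe set 1427680_a_at had 9.82 to 10.45 on the arrays labelled Nfib and 10.48 to 10.76 on control arrays, so this probe set did not show the added Nfib. On 1416293_at, 1438244_at and 1448288_at, each group labelled Nfib or Nfib+Mycl1 overlapped the controls of its line or lay below them. No Nfib probe set therefore showed the added Nfib, and the Nfib labels could not be checked by signal.

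Cell type markers were read for the whole samples. Of 11 neuroendocrine markers on the array, 2 to 4 per group exceeded log2 4 on both arrays. Ncam1 and Uchl1 were high throughout, at 7.88 to 12.4, but chromogranin A (Chga), synaptophysin (Syp) and Dll3 lay at 2.14 to 3.19 on all arrays, although these too mark such tumours. By contrast, 11 to 13 of 14 fibroblast markers exceeded log2 4 in every group. Macrophage markers went with the control label. Their mean log2 level over 15 genes was 2.77 to 3.32 on arrays with a vector, against 7.23 to 8.06 in 3583T3 control and 6.10 to 6.18 in 3151T4 control cells. Between 1 and 3 of the 15 exceeded log2 4 in a group with a vector, against 13 in 3583T3 control and 10 in 3151T4 control cells. Their part in the comparisons with control was not tested. In whole-sample RNA, fewer cells of a type and less RNA per cell cannot be told apart.

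In cells with a vector, most of the called probe sets of the IGF axis fell, mainly those of binding protein genes. The calls lay in partly different genes in the 2 lines. Counted by gene, Nfib, Mycl1 and both versus control called 3, 1 and 2 higher and 3, 1 and 3 lower in 3583T3. In 3151T4 they called 0 higher and 2, 4 and 6 lower. Of all probe sets tested, the same comparisons called 4.11%, 0.639% and 5.78% higher and 4.12%, 1.75% and 5.32% lower in 3583T3. In 3151T4 these shares were 6.48%, 8.02% and 14.5% higher and 5.30%, 7.11% and 13.6% lower. More was therefore called there among all probe sets too. Of the 23 probe sets, that of Igfbp2 fell by the most in 3583T3 cells with Nfib or with both vectors, 1 of Igfbp5 fell by the most in 3151T4 cells with both, and Igfbp7 fell in both lines. Igf2 rose in 3583T3 cells with Nfib or both, and Igfbp6 was higher there, from control signals below the testing limit. Igfbp5 in 3583T3 and Igfbp6 in 3151T4 lay near the floor. Igf1 was lower with Mycl1 in both lines, and Igf1r was not called for any vector. With both vectors, Igf1 1419519_at lay above control in 3583T3 and below it in 3151T4.

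**Figure D1:**
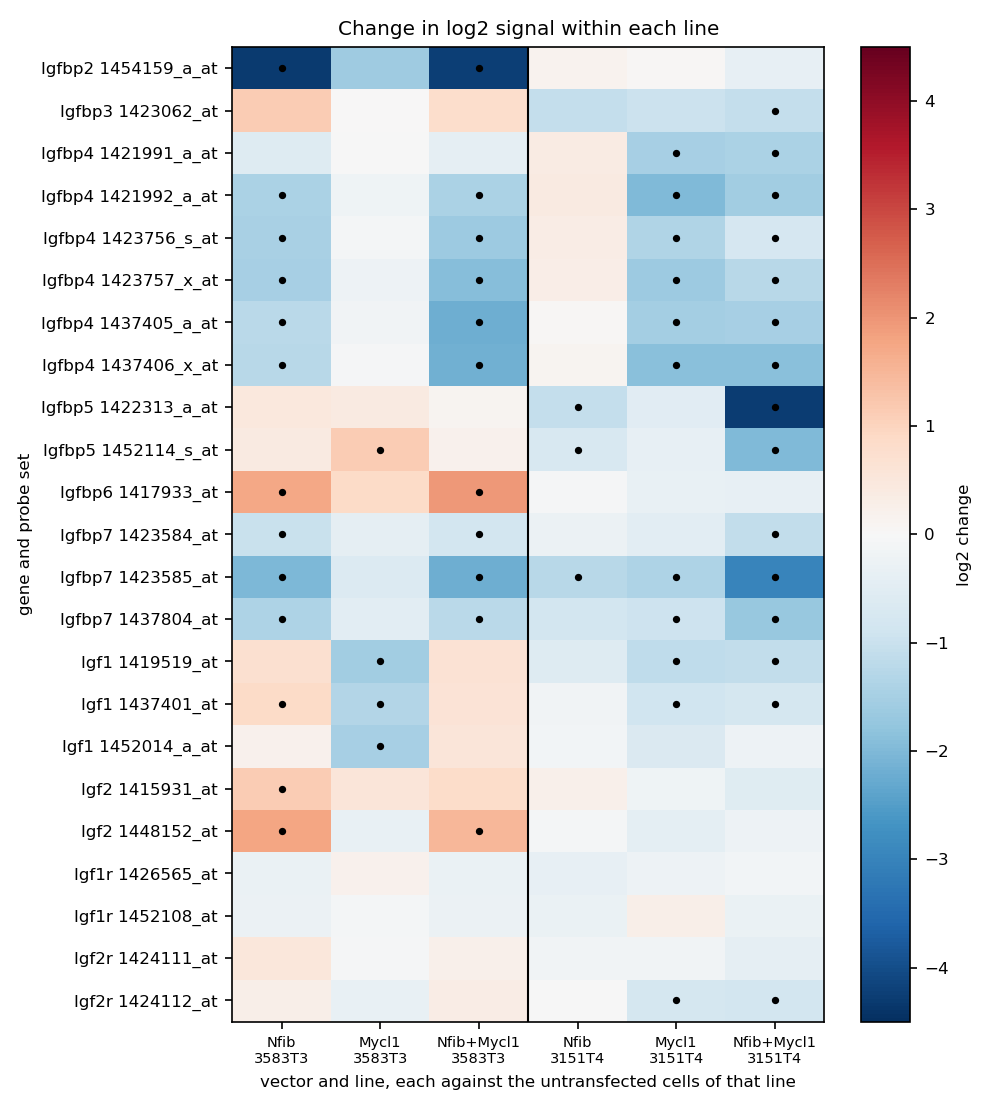
Log2 change of each of the 23 probe sets (rows) in 3583T3 and in 3151T4 with Nfib, Mycl1 or Nfib+Mycl1, each against the untransfected cells of the same line (columns). Blue is lower and red higher than control, and a dot marks an adjusted p under 0.05 (limma, 2 arrays per group); the deepest blue is Igfbp2 in 3583T3 and Igfbp5 in 3151T4.

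Counts set these members against the background. Over both lines, with cell line in the model and 4 arrays per vector, Nfib versus control called 0 of the 23 probe sets higher (4.15% of all probe sets tested) and 2 lower (4.30%), both of Igfbp7. Mycl1 versus control called 0 higher (6.04%) and 4 lower (3.92%), 3 of Igf1 and 1 of Igfbp7. Nfib+Mycl1 versus control called 0 higher (15.6%) and 10 lower (13.3%): 4 of Igfbp4, 3 of Igfbp7, 2 of Igfbp5 and 1 of Igfbp2. Of these 10, the 3 of Igfbp7 and 3 of Igfbp4 held with each array left out. The Igfbp2 call ended without 3583T3 Nfib+Mycl1 replicate 1 or either 3583T3 control array (adjusted p up to 0.109), and that of Igfbp5 1422313_a_at without any 1 of the 3151T4 Nfib+Mycl1 or control arrays (adjusted p up to 0.0803). The median change of the 23 was -0.29, -0.70 and -0.90 in these 3 comparisons, beside 0.02, 0.04 and 0.04 over all probe sets. Members share a gene in these counts, since 6 probe sets are of Igfbp4 and 3 each of Igfbp7 and Igf1.
Between vectors, Nfib+Mycl1 versus Mycl1 called 1 higher (1.35%) and 2 lower (1.61%), and Nfib+Mycl1 versus Nfib called 0 higher (8.54%) and 3 lower (6.80%). Of these 6 calls, that of Igfbp7 1423585_at versus Mycl1 held with each array left out, and the other 5 ended without some single array. Without the 2 arrays that went against their labels, these comparisons called 0 higher and 5 lower (2.19% of all called in either direction) and 0 higher and 7 lower (25.5%). The comparisons of Nfib, Mycl1 and both with control then called 2, 6 and 10 lower and 0 higher (7.87%, 17.6% and 32.8% of all called in either direction). The call lost was the rise of Igf1 1452014_a_at in Nfib+Mycl1 versus Mycl1 cells (1.23 ± 0.26 with all arrays, limma adjusted p = 0.0214, and 1.03 without them, limma adjusted p = 0.0609).
Within 3583T3, Nfib versus control called 4 higher (4.11%) and 9 lower (4.12%), Mycl1 versus control 1 (0.639%) and 3 (1.75%), and Nfib+Mycl1 versus control 2 (5.78%) and 9 (5.32%). Nfib+Mycl1 versus Mycl1 called 5 higher (4.16%) and 8 lower (2.73%). The 1 higher with Mycl1 and 1 of these 8 are Igfbp5 1452114_s_at, whose signals there all lay below log2 4. Those higher with Nfib include Igfbp6 and Igf2 1415931_at, and those higher with Nfib+Mycl1 include Igfbp6. Their control signals in 3583T3 lay below log2 4. Igfbp6 passed the limit through arrays with a vector and Igf2 1415931_at through 3151T4, so these calls are a description. The counts of these 4 comparisons, with the 2 arrays that went against their labels left out, were 2 and 7 (5.46% of all called in either direction), 2 and 4 (9.08%), 3 and 9 (17.3%), and 5 and 10 (6.86%). Nfib+Mycl1 versus Nfib called 0 higher and 0 lower by limma, as for all probe sets (0%), with 2 members of Igfbp4 at an unadjusted p under 0.05. Leaving out the same 2 arrays gave 0 higher and 2 lower (3.09%), at -1.83 for Igfbp2 (limma adjusted p = 0.01648) and -1.44 for Igfbp4 1437405_a_at (limma adjusted p = 0.02212).
Within 3151T4, Nfib versus control called 0 higher (6.48%) and 3 lower (5.30%), Mycl1 versus control 0 (8.02%) and 11 (7.11%), and Nfib+Mycl1 versus control 0 (14.5%) and 15 (13.6%). Nfib+Mycl1 versus Mycl1 called 0 higher (1.36%) and 3 lower (1.43%), and Nfib+Mycl1 versus Nfib 0 (13.3%) and 13 (14.2%).
The response to a vector was also compared between the lines. For Nfib, 6 of the 23 probe sets had a higher response in 3583T3 than in 3151T4 (2.30% of all) and 4 a lower one (3.30%). For Mycl1 it was 5 higher (0.892%) and 0 lower (0.538%), and for Nfib+Mycl1 8 higher (3.57%) and 1 lower (1.37%). Igfbp5, near the floor in 3583T3, and Igfbp6, near it in 3151T4, passed the limit for testing through the other line alone, and they make up 3, 1 and 3 of the higher responses, which are no evidence of a different response. The fall of the macrophage markers differed between lines too, being larger in 3583T3 for 9, 7 and 7 of 13 markers tested with the 3 vectors in that order. The change of the fibroblast markers differed as well, with 4 of 14 higher and 3 lower in 3583T3 for Nfib, 4 and 0 for Mycl1, and 6 and 1 for both. The part of either list in these differences was not tested.

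Igfbp2 encodes a secreted binding protein that is made in large amounts before birth. In 3583T3, probe set 1454159_a_at had log2 signals of 6.94 and 5.11 with Nfib, 8.88 and 8.57 with Mycl1, 5.11 and 7.05 with Nfib+Mycl1, and 10.07 and 10.59 in control cells. All arrays with a vector lay below control, and the Nfib and Nfib+Mycl1 arrays overlapped each other and lay lowest. The 3151T4 signals were 11.0 and 10.73 with Nfib, 10.46 and 11.03 with Mycl1, 10.38 and 10.33 with Nfib+Mycl1, and 11.02 and 10.40 in control cells. The Nfib and Mycl1 arrays of that line overlapped control, and the Nfib+Mycl1 arrays lay just under it.
In 3583T3 the signal fell by 4.30 ± 0.56 with Nfib (SE, n = 2 against 2; limma adjusted p = 0.0001815) and by 4.25 ± 0.56 with Nfib+Mycl1 (limma adjusted p = 0.0002075), 19.8-fold and 19-fold lower. The replicates differed widely, 1 array of each of these groups went against its label, and both values turn on which array is used. The change with Nfib was -3.39 without replicate 2 and -5.22 without replicate 1, and that with Nfib+Mycl1 was -5.22 without replicate 2 and -3.28 without replicate 1, with all 4 still called. With Mycl1 the difference was -1.60 (limma adjusted p = 0.1533), and it was called once the 2 arrays that went against their labels were left out (limma adjusted p = 0.001352). In 3151T4 no comparison called Igfbp2, and with Nfib the difference was 0.16, with a 95% interval of -1.06 to 1.37. The response to Nfib differed between 3583T3 and 3151T4 by -4.46 ± 0.80 (limma adjusted p = 0.004018), and that to Nfib+Mycl1 by -3.89 ± 0.80 (limma adjusted p = 0.01038). These differences were -3.54 and -4.86 without the 2 arrays that went against their labels. The Nfib+Mycl1 call ended without 3583T3 control replicate 2 or 3151T4 control replicate 4 (limma adjusted p up to 0.06171).

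Igfbp5 encodes a binding protein that also attaches to extracellular matrix. Its 2 probe sets were near the floor in every 3583T3 array and bright in 3151T4. Probe set 1422313_a_at had 10.29 and 10.71 in 3151T4 cells with Nfib, 11.34 and 10.80 with Mycl1, 6.91 and 7.68 with Nfib+Mycl1, and 11.76 and 11.39 in control cells. The Nfib+Mycl1 arrays lay far below all others, and the Nfib and Mycl1 arrays lay below control by much less.
With Nfib+Mycl1 it fell by 4.28 ± 0.29 against control (SE, n = 2 against 2; limma adjusted p = 5.307e-07), 19.4-fold. Against Mycl1 alone it fell by 3.77 ± 0.29 (limma adjusted p = 4.506e-06) and against Nfib alone by 3.20 ± 0.29 (limma adjusted p = 8.204e-06). In these 2 comparisons the macrophage markers were near the floor on both sides, with 1 and 4 of 13 called lower. Fibroblast markers moved in opposite ways in them, with 5 of 14 higher versus Mycl1 and 8 of 14 lower versus Nfib, and their part was not tested. Probe set 1452114_s_at moved the same way by less, by -1.99, -1.64 and -1.27 in the same order. With Nfib alone the changes were -1.08 and -0.73 for the 2 probe sets (limma adjusted p = 0.02778 and 0.02104), and these calls ended without any 1 of the 4 arrays compared, with adjusted p up to 0.2347. With Mycl1 alone neither was called.
In 3583T3, 1452114_s_at had 3.17 and 2.93 with Nfib, 3.64 and 3.95 with Mycl1, 2.77 and 2.91 with Nfib+Mycl1, and 2.65 and 2.64 in control cells. All lay below the testing limit of log2 4, and 1422313_a_at lay at 2.04 to 2.78 on those arrays. Both probe sets were tested through 3151T4 alone, so the responses of the 2 lines cannot be compared for Igfbp5.

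**Figure D2:**
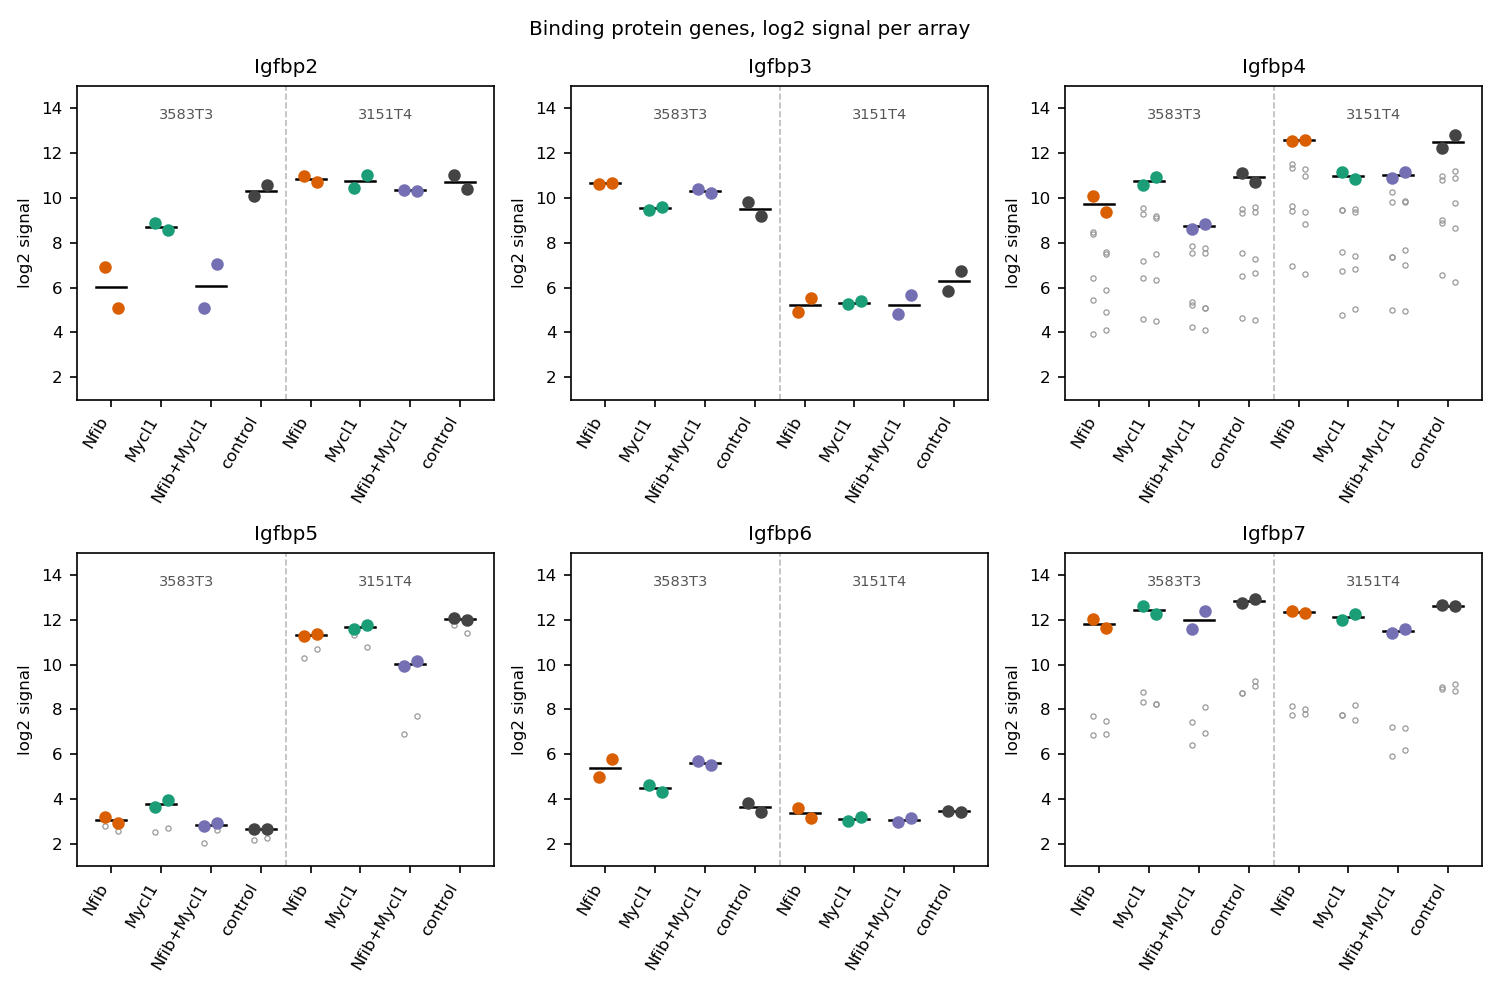
Log2 signal of the 6 binding protein genes on each array, for Nfib, Mycl1, Nfib+Mycl1 and control cells of 3583T3 (left of the dashed line) and 3151T4 (right). Filled points are the brightest probe set of a gene, bars the mean of 2 arrays and small open points the other probe sets; Igfbp2 drops in 3583T3 with Nfib and Nfib+Mycl1, and Igfbp5 is near the floor in 3583T3.

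Igfbp7 encodes a secreted protein related to the IGF binding proteins, with low affinity for the ligands. It was the 1 member called lower over both lines with each vector. Probe set 1423585_at had 6.86 and 6.91 in 3583T3 cells with Nfib, 8.31 and 8.23 with Mycl1, 6.40 and 6.95 with Nfib+Mycl1, and 8.73 and 9.04 in control cells. The 3151T4 values were 7.77 and 7.81 with Nfib, 7.76 and 7.54 with Mycl1, 5.92 and 6.17 with Nfib+Mycl1, and 8.92 and 9.13 in control cells. Every array with a vector lay below both controls of its line.
Over both lines this probe set fell by 1.62 ± 0.27 with Nfib (SE, n = 4 against 4; limma adjusted p = 0.001546), by 0.99 ± 0.27 with Mycl1 (limma adjusted p = 0.03359) and by 2.59 ± 0.27 with both (limma adjusted p = 3.147e-05), 3.07-fold, 1.99-fold and 6.04-fold lower. The calls for Nfib and for both held with each array left out in turn, and the values were -1.47 and -2.78 without the 2 arrays that went against their labels. That for Mycl1 ended without any 1 of 6 arrays: the control arrays of either line and the Mycl1 arrays of 3151T4 (adjusted p up to 0.115). Against Mycl1 alone, Nfib+Mycl1 cells differed by -1.60 in 3583T3 (limma adjusted p = 0.0003548) and by -1.60 in 3151T4 (limma adjusted p = 0.0005313), where macrophage markers were near the floor on both sides. The 3583T3 value was -1.87 without the 2 arrays that went against their labels. Fibroblast markers were higher with Nfib+Mycl1 there, 6 of 14 in 3583T3 and 5 of 14 in 3151T4, and their part was not tested. No Igfbp7 probe set was called different between the lines, the differences being 0.05 to 0.17.
The 3 probe sets agreed in direction but not in size. With both vectors the changes over both lines were -2.59 for 1423585_at, -1.46 for 1437804_at and -0.97 for 1423584_at, which is the brightest, at 11.39 to 12.91 on all arrays, and all 3 were called.

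Igfbp4 encodes a binding protein that blocks IGF action and is the main substrate of pappalysin 1. All but 1 of its 6 probe sets correlated with the brightest at 0.88 or more within each line. The brightest, 1437405_a_at, had 10.07 and 9.37 in 3583T3 cells with Nfib, 10.60 and 10.95 with Mycl1, 8.63 and 8.83 with Nfib+Mycl1, and 11.10 and 10.74 in control cells. In the other line, 3151T4, the signals were 12.55 and 12.60 with Nfib, 11.15 and 10.85 with Mycl1, 10.90 and 11.15 with Nfib+Mycl1, and 12.23 and 12.81 in control cells. Nfib arrays were low in 3583T3 and overlapped control in 3151T4, while Mycl1 arrays overlapped control in 3583T3 and were low in 3151T4.
With both vectors this probe set fell in both lines, by 2.19 ± 0.25 in 3583T3 (limma adjusted p = 4.487e-05) and by 1.49 ± 0.25 in 3151T4 (limma adjusted p = 0.0009083; SE, n = 2 against 2 in each). Without the 2 arrays that went against their labels the 3583T3 value was -2.29. With Mycl1 all 6 probe sets fell in 3151T4, with changes of -1.36 to -1.98, and none was called in 3583T3. With Nfib 5 of the 6 fell in 3583T3, with changes of -1.20 to -1.50, and none was called in 3151T4. Of these 5, 1437405_a_at and 1437406_x_at were no longer called without 3583T3 Nfib replicate 2 or control replicate 1 (adjusted p up to 0.1131), and were -0.85 and -0.99 without the 2 arrays that went against their labels (limma adjusted p of 0.09347 and 0.08899). The other 3 were -1.16, -1.01 and -1.06 without those arrays, all called. Fibroblast markers went with Mycl1 in 3151T4, where 8 of 14 were lower, and not in 3583T3, where 3 were higher and 0 lower. With Nfib they were higher in both lines, 9 of 14 in 3583T3 and 6 of 14 in 3151T4, and their part was not tested.
The difference between lines was itself called for 3 probe sets with Nfib, at -1.78 to -1.82, and for 4 with Mycl1, at 1.42 to 1.84. The Nfib difference held with each array left out for 1421992_a_at and 1423757_x_at and ended for 1423756_s_at without 3583T3 control replicate 2 or 3151T4 Nfib replicate 3 (adjusted p up to 0.05968). The 3 Nfib differences were -1.54, -1.33 and -1.37 without the 2 arrays that went against their labels, all called. The Mycl1 differences each ended without any 1 of at least 5 arrays, the 3583T3 control arrays and 3583T3 Mycl1 replicate 1 among them in all 4 (adjusted p up to 0.2478).

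Igfbp6 encodes a binding protein that prefers IGF2. Its probe set, 1417933_at, had 4.99 and 5.77 in 3583T3 cells with Nfib, 4.64 and 4.32 with Mycl1, 5.69 and 5.50 with Nfib+Mycl1, and 3.82 and 3.44 in control cells. All arrays with a vector lay above control in that line. In 3151T4 all 8 arrays lay between 2.99 and 3.58, near the floor.
In 3583T3 the rise was 1.75 ± 0.26 with Nfib (SE, n = 2 against 2; limma adjusted p = 0.0005682) and 1.97 ± 0.26 with Nfib+Mycl1 (limma adjusted p = 0.0002075), 3.37-fold and 3.91-fold. Without the 2 arrays that went against their labels the changes were 1.36 and 2.06, both called. Only arrays with a vector exceeded the testing limit of log2 4, and the control signals lay below it, so these calls and fold values are a description. The probe set was tested through 3583T3 alone, so the responses of the 2 lines cannot be compared for Igfbp6.

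Igfbp3 encodes the main carrier of IGFs in blood, and its probe set was bright in 3583T3 and dim in 3151T4. Probe set 1423062_at had 10.63 and 10.68 in 3583T3 cells with Nfib, 9.46 and 9.61 with Mycl1, 10.40 and 10.21 with Nfib+Mycl1, and 9.83 and 9.18 in control cells. In 3151T4 it had 4.90 and 5.55 with Nfib, 5.25 and 5.42 with Mycl1, 4.81 and 5.67 with Nfib+Mycl1, and 5.87 and 6.76 in control cells. Nfib arrays were above control in 3583T3 and below it in 3151T4.
Neither difference was called by itself: it was 1.15 in 3583T3 (limma adjusted p = 0.05215, and 1.13 with 0.2037 without the 2 arrays that went against their labels) and -1.09 in 3151T4 (limma adjusted p = 0.05359). The difference between the lines in the response to Nfib was called, at 2.23 ± 0.48 (limma adjusted p = 0.01243; 2.21 without those 2 arrays), and ended without 3583T3 control replicate 2, 3151T4 Nfib replicate 3 or 3151T4 control replicate 4 (adjusted p up to 0.07783). With both vectors in 3151T4 it fell by 1.07 (limma adjusted p = 0.03131), a call that ended without Nfib+Mycl1 replicate 3 or control replicate 4 (adjusted p up to 0.2959).

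Among the ligands, Igf2, the growth factor gene most active before birth, was brightest in 1448152_at. It had 9.03 and 9.15 in 3583T3 cells with Nfib, 6.81 and 7.14 with Mycl1, 8.68 and 8.92 with Nfib+Mycl1, and 7.06 and 7.56 in control cells. In 3151T4 the 8 arrays lay between 10.15 and 10.88, and no vector was called. The Nfib and Nfib+Mycl1 arrays of 3583T3 lay above all others of that line, and Mycl1 arrays overlapped control.
In 3583T3 the signal rose by 1.78 ± 0.21 with Nfib (SE, n = 2 against 2; limma adjusted p = 5.967e-05), by 1.49 ± 0.21 with Nfib+Mycl1 (limma adjusted p = 0.0003211) and by 1.83 ± 0.21 in Nfib+Mycl1 versus Mycl1 cells (limma adjusted p = 0.000101). All 3 calls held with each array left out, and the values were 1.72, 1.37 and 1.70 without the 2 arrays that went against their labels. The response to Nfib was higher in 3583T3 than in 3151T4 by 1.86 ± 0.29 (limma adjusted p = 0.001675) and that to both vectors by 1.71 ± 0.29 (limma adjusted p = 0.003142), or 1.80 and 1.58 without those arrays. The other Igf2 probe set, 1415931_at, was dim, at 2.90 to 5.56 over all arrays, and its 3583T3 signals lay below log2 4 on all but 1 array. It was tested through 3151T4 alone, so its calls are a description. It rose by 1.13 with Nfib in 3583T3 (limma adjusted p = 0.02378), a call that ended without 3583T3 Nfib replicate 2 or either 3583T3 control array (adjusted p up to 0.216) and without the 2 arrays that went against their labels (adjusted p = 0.1807).

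Igf1, the ligand that mediates growth hormone action and is also made by macrophages and fibroblasts, has 3 probe sets. The brightest, 1452014_a_at, had 8.52 and 8.21 in 3583T3 cells with Nfib, 6.80 and 6.56 with Mycl1, 8.54 and 8.90 with Nfib+Mycl1, and 7.86 and 8.50 in control cells. The Mycl1 arrays stood below all other 3583T3 arrays. In 3151T4 it had 9.90 and 9.95 with Nfib, 9.37 and 9.44 with Mycl1, 9.85 and 9.79 with Nfib+Mycl1, and 10.23 and 9.86 in control cells, again lowest with Mycl1.
With Mycl1 all 3 probe sets fell over both lines, with changes of -1.07 to -1.35 (limma adjusted p of 0.02572, 0.02979 and 0.03487). Each of these 3 calls ended without any 1 of 4 to 7 arrays, among them 3583T3 Mycl1 replicate 1 and both 3151T4 control arrays in all 3 (adjusted p up to 0.1084). Within 3583T3 the fall of 1419519_at, by 1.55 ± 0.21 (SE, n = 2 against 2; limma adjusted p = 0.0006372), held with each array left out. Macrophage markers fell beside it, as in every comparison with control. With Mycl1 5 of 14 fibroblast markers were lower over both lines and 8 of 14 in 3151T4, while in 3583T3 3 were higher and 0 lower; the part of either list was not tested.
Nfib+Mycl1 cells were higher than Mycl1 cells in 3583T3 by 2.22, 1.92 and 2.04 for the 3 probe sets (limma adjusted p of 2.401e-05, 5.954e-05 and 8.199e-05). These 3 calls held with each array left out, at 2.16, 2.15 and 1.86 without the 2 arrays that went against their labels, and the macrophage markers averaged 2.84 to 2.89 in Nfib+Mycl1 and 2.99 to 3.11 in Mycl1 cells. Fibroblast markers moved the same way, at a mean of 9.41 to 9.62 in Nfib+Mycl1 and 7.93 to 8.17 in Mycl1 cells of 3583T3, with 6 of 14 called higher; their part was not tested. In 3151T4 no Igf1 probe set was called in that comparison. Against control, 1419519_at in cells with both vectors differed by 0.66 in 3583T3, all above, and by -1.10 in 3151T4, all below. The responses differed by 1.77 (limma adjusted p = 0.003034), a call that held with each array left out. With Nfib the changes were 0.72 and -0.57, and the responses differed by 1.28 (limma adjusted p = 0.02131). That call ended without some single array. Macrophage markers fell in all these comparisons with control, and their part was not tested.

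**Figure D3:**
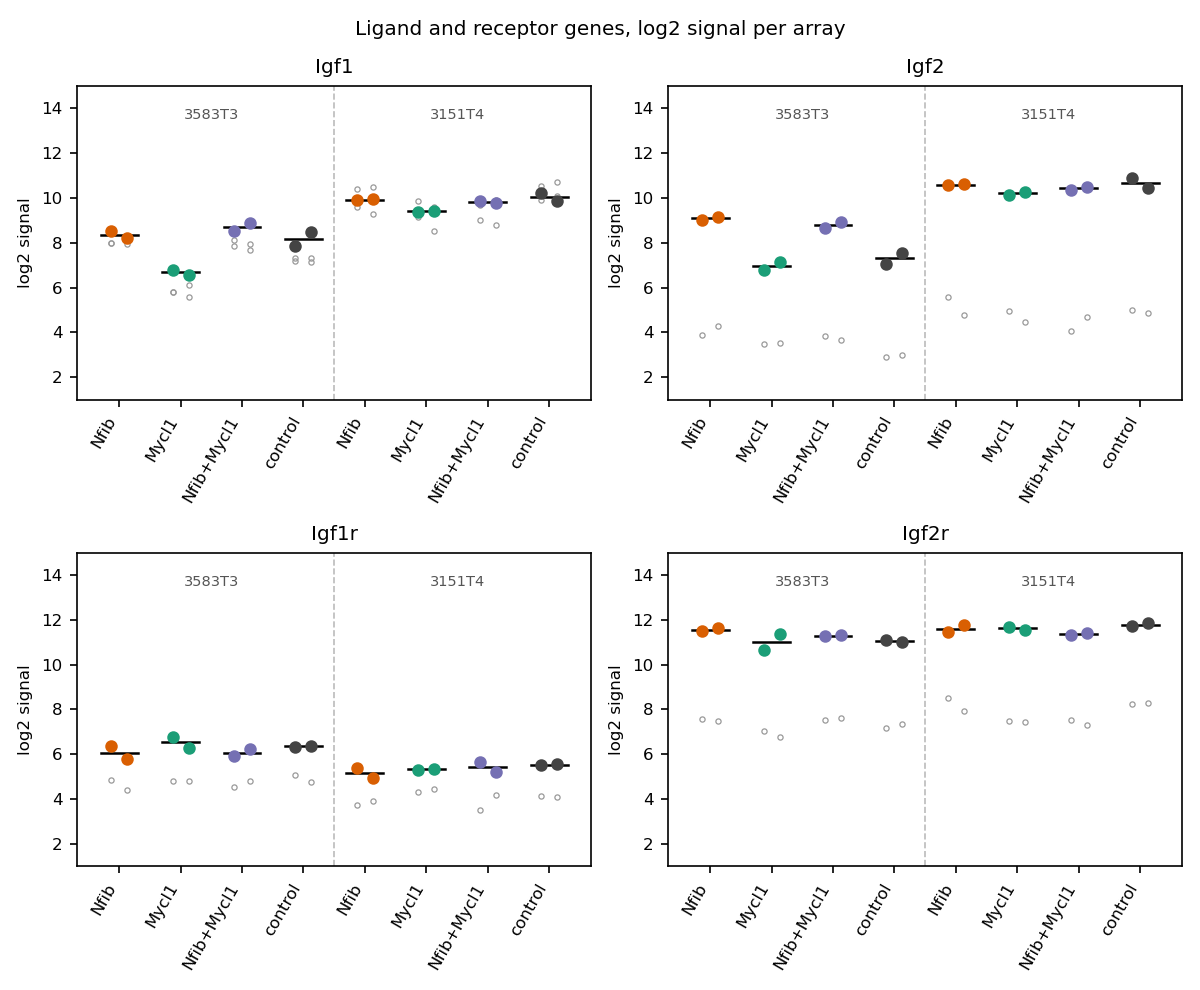
Log2 signal of the 2 ligand and 2 receptor genes on each array, for Nfib, Mycl1, Nfib+Mycl1 and control cells of 3583T3 (left of the dashed line) and 3151T4 (right). Filled points are the brightest probe set, bars the mean of 2 arrays and small open points the other probe sets; in 3583T3, Igf2 is high with Nfib and Nfib+Mycl1 and Igf1 is low with Mycl1.

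Fibroblast markers also stood beside the rises of Igf2 and Igfbp6 in 3583T3. Their mean level there was 9.54 to 9.68 with Nfib, 7.93 to 8.17 with Mycl1, 9.41 to 9.62 with Nfib+Mycl1 and 7.62 to 7.95 in control cells, with 9 of 14 called higher with Nfib. In 3151T4 it was 10.88 to 10.98 with Nfib, 8.19 to 8.31 with Mycl1, 9.37 to 9.61 with Nfib+Mycl1 and 9.47 in control cells, with 6 of 14 called higher with Nfib, while Igf2 there had no call. Their part in these results was not tested.

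The receptors moved least. Igf1r, the signalling receptor, had 6.35 and 5.76 in 3583T3 cells with Nfib, 6.77 and 6.29 with Mycl1, 5.90 and 6.21 with Nfib+Mycl1, and 6.34 and 6.37 in control cells (probe set 1426565_at). In 3151T4 the 8 arrays lay between 4.95 and 5.64, and in both lines the groups lay within a narrow range. Neither Igf1r probe set was called in any of the 5 comparisons of vectors over both lines or the 10 within a line. The difference over both lines with Nfib was -0.33, with a 95% interval of -0.73 to 0.07, and that with both vectors was -0.21, with an interval of -0.61 to 0.20. Leaving out the 2 arrays that went against their labels gave -0.22 and -0.21.
Igf2r, the clearance receptor, lay between 10.66 and 11.84 on all arrays by its brightest probe set, 1424111_at, which was not called for any vector. Its second probe set, 1424112_at, had 8.50 and 7.92 in 3151T4 cells with Nfib, 7.48 and 7.42 with Mycl1, 7.51 and 7.30 with Nfib+Mycl1, and 8.22 and 8.27 in control cells. It fell there by 0.79 with Mycl1 (limma adjusted p = 0.02198) and by 0.84 with Nfib+Mycl1 (limma adjusted p = 0.01034). The first call ended without any 1 of the 4 arrays compared and the other without Nfib+Mycl1 replicate 4 or control replicate 4 (adjusted p up to 0.1324). The 2 probe sets correlated at only 0.42 within 3583T3 and 0.39 within 3151T4.

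Every member but Igfbp7 was called different between the lines. Relative to 3151T4, 4 of the 23 probe sets were higher in 3583T3 (30.4% of all) and 16 lower (27.7%), and all 20 calls held with each array left out. Igfbp5, Igfbp6 and Igf2 1415931_at are among them, and since they were tested through 1 line alone their calls are a description. Igfbp5 1452114_s_at lay at 2.64 to 3.95 in 3583T3, against 9.94 to 12.10 in 3151T4. Igfbp3 went the other way, at 9.18 to 10.68 in 3583T3 and 4.81 to 6.76 in 3151T4, a difference of 4.47 ± 0.27 (SE, n = 8 each; limma adjusted p = 2.166e-09). Neither pair of ranges overlapped.
Both ligands were lower in 3583T3: the differences were -1.81 to -2.83 over 3 probe sets of Igf1 and -2.43 for Igf2 1448152_at. That of Igf2 1415931_at, tested through 3151T4 alone, was -1.22. Igfbp2 differed by -2.88, a mean that pools the bright control and dim Nfib arrays of 3583T3, and the 6 probe sets of Igfbp4 differed by -1.44 to -2.15. Igf1r was higher by 0.88 and 0.71, while Igf2r differed by -0.37 and -0.52. Fibroblast markers differed between the lines too, with 2 of 14 higher and 8 lower in 3583T3, and their part was not tested.

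The group means of Igfbp7 lay below control in both lines with every vector, whichever probe set was read. Without the 2 arrays that went against their labels, the response differed between 3583T3 and 3151T4 with 6 higher and 4 lower for Nfib (6% of all in either direction), 7 and 1 for Mycl1 (2.92%), and 7 and 1 for both vectors (6.73%). Apart from Igfbp5 and Igfbp6, the differences that held with every single array left out were those of Igfbp2, Igf2 1448152_at and 2 probe sets of Igfbp4 with Nfib, and of Igf1 1419519_at and Igf2 1448152_at with both vectors.

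**Figure D4:**
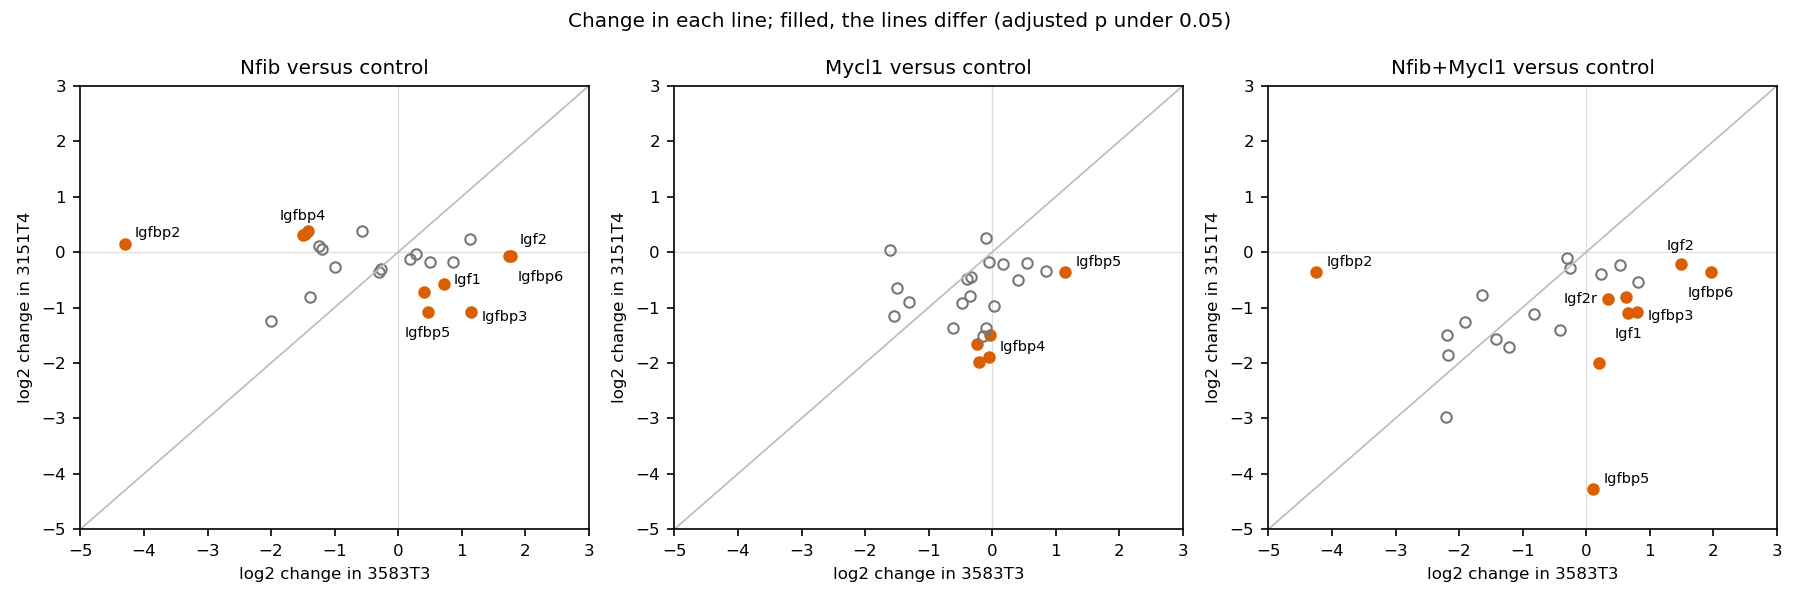
Log2 change of the 23 probe sets in 3583T3 (horizontal) and in 3151T4 (vertical) for Nfib, Mycl1 and Nfib+Mycl1, each against control, with the diagonal of equal change. Filled points are probe sets whose change differed between the lines (limma adjusted p under 0.05), 1 per gene labelled, with Igfbp5 near the floor in 3583T3 and Igfbp6 in 3151T4; Igfbp2 lies far left with Nfib and Nfib+Mycl1, and Igfbp5 far down with Nfib+Mycl1.

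Among genes of the pathway that are not members, 3 that were called over both lines act on the release of ligand from binding proteins. PAPPA, pappalysin 1, cuts IGFBP4 and frees the ligand, and the stanniocalcins STC1 and STC2 block it. Stc2 had 3.66 and 5.07 in 3583T3 cells with Nfib, 3.27 and 3.48 with Mycl1, 4.93 and 3.72 with Nfib+Mycl1, and 2.54 and 2.75 in control cells. In 3151T4 it had 6.61 and 6.87 with Nfib, 4.96 and 5.76 with Mycl1, 5.90 and 6.34 with Nfib+Mycl1, and 3.73 and 3.91 in control cells. Every array with a vector lay above both controls of its line.
Over both lines Stc2 rose by 2.32 ± 0.33 with Nfib (SE, n = 4 against 4; limma adjusted p = 0.000513) and by 1.99 ± 0.33 with Nfib+Mycl1 (limma adjusted p = 0.001321). Both calls held with each array left out, at 2.18 and 2.19 without the 2 arrays that went against their labels. With Mycl1 it rose by 1.13 (limma adjusted p = 0.04476), a call that ended without any 1 of 11 arrays, all 4 Mycl1 and all 4 control arrays among them (adjusted p up to 0.1432). Only arrays with a vector exceeded the testing limit of log2 4, and all control signals of Stc2 lay below it. It was tested through arrays with a vector alone, so its calls are a description.
Stc1 had 7.38 and 7.78 in 3583T3 cells with Nfib, 5.26 and 4.72 with Mycl1, 6.90 and 6.83 with Nfib+Mycl1, and 5.84 and 5.77 in control cells. Signals in 3151T4 were 12.50 and 11.65 with Nfib, 7.60 and 7.21 with Mycl1, 10.41 and 10.28 with Nfib+Mycl1, and 10.30 and 9.79 in control cells. Nfib arrays were highest and Mycl1 arrays lowest in both lines. It rose by 1.90 ± 0.35 with Nfib (limma adjusted p = 0.003081) and by 2.41 ± 0.35 in Nfib+Mycl1 versus Mycl1 cells (limma adjusted p = 0.001857), or 1.98 and 2.40 without the 2 arrays that went against their labels. It fell by 1.73 with Mycl1 (limma adjusted p = 0.01296), a call that ended without 3151T4 Mycl1 replicate 4 (adjusted p = 0.05257).
Pappa had 5.74 and 5.10 in 3583T3 cells with Nfib, 5.88 and 5.57 with Mycl1, 5.0 and 6.23 with Nfib+Mycl1, and 6.35 and 6.77 in control cells. Signals in 3151T4 were 3.65 and 3.16 with Nfib, 4.23 and 4.18 with Mycl1, 3.25 and 3.26 with Nfib+Mycl1, and 4.80 and 4.77 in control cells. All arrays with a vector lay below control in both lines. It fell by 1.26 ± 0.26 with Nfib (limma adjusted p = 0.006605) and by 1.24 ± 0.26 with Nfib+Mycl1 (limma adjusted p = 0.003931). Both calls held with each array left out, at -1.19 and -1.54 without the 2 arrays that went against their labels, and the difference of -0.71 with Mycl1 was not called (limma adjusted p = 0.08616).

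**Figure D5:**
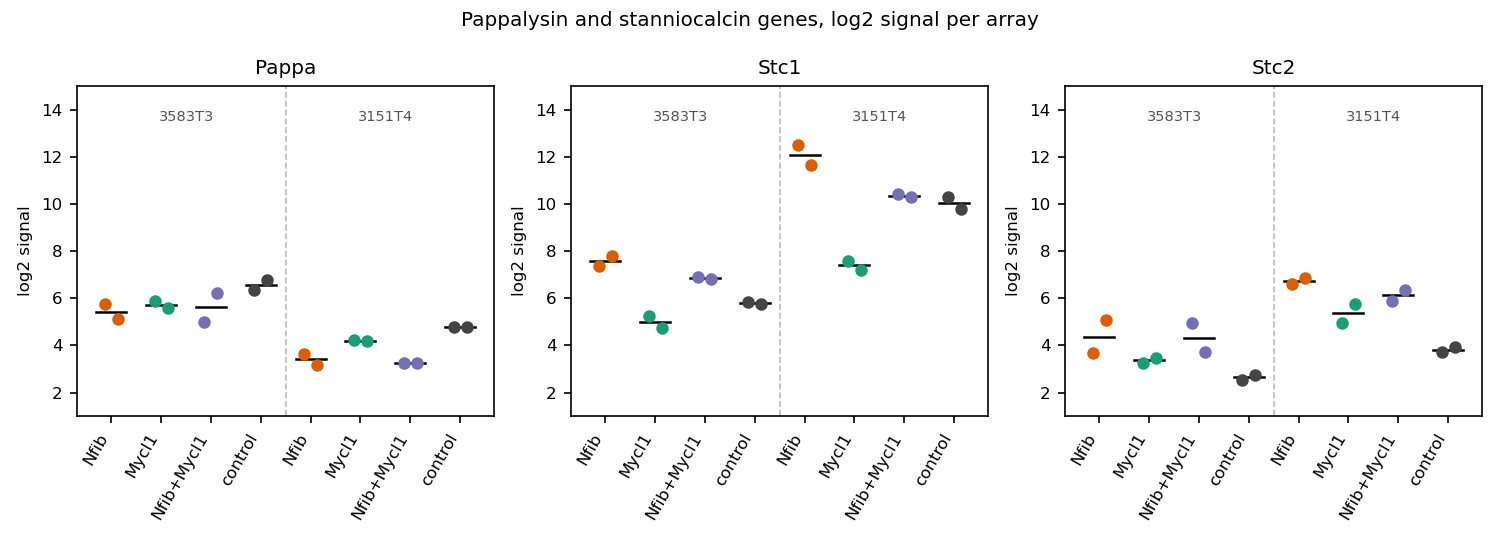
Log2 signal of Pappa, Stc1 and Stc2 on each array, for Nfib, Mycl1, Nfib+Mycl1 and control cells of 3583T3 (left of the dashed line) and 3151T4 (right), with bars for the mean of 2 arrays. Stc2 is above control and Pappa below it on every array with a vector, and Stc1 is highest with Nfib and lowest with Mycl1.

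Of 40 further pathway genes listed by role, 31 had a probe set with 1 symbol and 25 passed the limit for testing. Nfib versus control called 3 of the 25 higher (4.15% of all probe sets) and 1 lower (4.30%), Mycl1 versus control 1 (6.04%) and 1 (3.92%), and Nfib+Mycl1 versus control 2 (15.6%) and 1 (13.3%). Nfib+Mycl1 versus Mycl1 called 1 (1.35%) and 0 (1.61%), and Nfib+Mycl1 versus Nfib 1 (8.54%) and 2 (6.80%). These 5 counts, without the 2 arrays that went against their labels, were 3 and 1, 1 and 2, 1 and 2, 1 and 0, and 0 and 3, so that calls were gained as well as lost. The shares of all probe sets called without those arrays are the ones given with the member counts. For Mycl1 and Nfib+Mycl1 versus control and for Nfib+Mycl1 versus Nfib they were larger than with all arrays. The medians of the 25 lay between -0.01 and 0.14, beside 0.00 to 0.04 and -0.02 over all probe sets. Of the kinase cascade, Foxo3, a transcription factor held back by AKT, was called in Nfib versus control (0.47) and in Nfib+Mycl1 versus Nfib (-0.49), Tsc1, a brake on mTOR, in Nfib+Mycl1 versus control (0.39), and Akt1, the kinase, in Nfib+Mycl1 versus Nfib (0.51). Without the 2 arrays that went against their labels none of these 4 was called (limma adjusted p of 0.1181, 0.084, 0.06475 and 0.081).

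The probe sets whose signal followed each member most closely over the 16 arrays were looked up as a description. Because the lines differ so much, correlations within each line, over 8 arrays, say more than the pooled ones. Igfbp7 was followed by Cys1 (0.98 in 3583T3 and 0.92 in 3151T4) and Sat1 (0.99 and 0.91), and Igf2 by Pdk4 (0.96 and 0.80) and Fmod (0.93 and 0.81). Igfbp4 was followed by Armcx3 (0.88 and 0.94) and Xbp1 (0.86 and 0.94), Igf1 by Lamc1 (0.96 and 0.78) and Cxcl12 (0.93 and 0.74), and Igf2r by Ebf1 (0.97 and 0.85) and Sema3e (0.95 and 0.82). For the others the likeness was close in 1 line only or rested on the line difference: Igfbp2 with Pcmt1 (0.97 and 0.68) and Wdfy1 (0.97 and 0.40), Igfbp6 with Snai1 (0.96 and 0.50) and Sox7 (0.93 and 0.14), Igfbp3 with Clca3a1 (0.87 and 0.45) and Hmga2 (0.77 and 0.42), Igf1r with Tspan8 (0.89 and 0.73) and Erbb3 (0.94 and 0.50), and Igfbp5 with P2ry14 (-0.52 and 0.89) and Hmx1 (0.34 and 0.81). The points share lines, vectors and normalization.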

How the data were processed

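RNA of 16 samples, 2 for each of 4 kinds of cells in 2 lines, was measured on Affymetrix mouse arrays. The deposited values are log2 signals made by the authors; the submitters' processing notes name GCRMA (version 2.20.0) and R (version 2.11.0). That the scale is log2 was read from the tool and the values, and CEL files were not used here. Probe sets were named by the platform annotation (20380 with 1 gene symbol, 691 with several and 1555 with none), and 64 control probe sets were left out. The members and gene lists were chosen with earlier results of these data known.

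In R 4.3.3 with limma 3.58.1, probe sets above log2 4 on at least 2 arrays were tested. Comparisons over both lines used an additive model of vector and line (11 residual degrees of freedom). Comparisons within a line and differences between lines in response used the 8 group means (8 residual degrees of freedom). All p-values were adjusted by Benjamini-Hochberg over all probe sets tested. Named genes are all members, and of the pathway list up to 4 called genes with the smallest p per comparison, and for each member the 2 probe sets of other genes that correlated best with its brightest. The scripts were tested on simulated data. Alternatives were the filter, 1 probe set per gene, a second quantile step, median centring, replicate number as a block, the 8 group means, averaged arrays, each array left out, and, chosen after seeing the data, the 2 arrays with a contrary Mycl signal left out. Same-numbered samples did not deviate together (correlations of deviations from -0.72 to 0.29 over 12 pairs), so numbers were not taken to pair them. The -0.72 was that of 3583T3 Nfib and Nfib+Mycl1, which hold the 2 contrary arrays. It cannot decide on pairing if those arrays were exchanged. The remaining pairs lay from -0.44 to 0.29.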

Additional observations from a re-analysis of the deposited data

Results flagged for a closer look

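The response to a vector, log2 change against control in 3583T3 minus that in 3151T4, differed between the lines in 24 results (limma interaction test, adjusted p under 0.05), so these are listed by vector. For Nfib the differences were -4.46 for Igfbp2, 2.23 for Igfbp3, -1.81, -1.78 and -1.82 for Igfbp4 (1421992_a_at, 1423756_s_at and 1423757_x_at), 1.54 and 1.13 for Igfbp5 (1422313_a_at and 1452114_s_at), 1.82 for Igfbp6, 1.28 for Igf1 (1419519_at) and 1.86 for Igf2 (1448152_at). For Mycl1 they were 1.47, 1.77, 1.42 and 1.84 for Igfbp4 (1421991_a_at, 1421992_a_at, 1423757_x_at and 1437406_x_at) and 1.51 for Igfbp5 (1452114_s_at). For Nfib+Mycl1 they were -3.89 for Igfbp2, 1.88 for Igfbp3, 4.39 and 2.19 for Igfbp5 (1422313_a_at and 1452114_s_at), 2.33 for Igfbp6, 1.77 and 1.43 for Igf1 (1419519_at and 1437401_at), 1.71 for Igf2 (1448152_at) and 1.18 for Igf2r (1424112_at). Igfbp5 stood near the floor in 3583T3 and Igfbp6 in 3151T4, and both were tested through the other line alone, so their 7 differences show no more than a signal in 1 line. The Igf2r difference was the only 1 of the 24 that was not called without the 2 arrays that went against their labels (adjusted p = 0.0659). Of the 24, 15 were lost on leaving out some single array.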

How the results depend on the processing

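No result changed direction under any setting. Of 152 called results of members, 95 stayed called with every single array left out and 146 without the 2 arrays that went against their labels. Counts of called probe sets follow, and 1 probe set per gene leaves 10 to test. For comparisons over both lines the main model leaves 11 residual degrees of freedom, group means 8 and averaged arrays 3. A setting moves the calls of all probe sets, and the shares over all of them are not given with these counts. The counts therefore describe the calls and do not set the members against other genes. Nfib versus control called 2, and 0 with 1 probe set per gene, 9 from the 8 group means and 0 with the 2 arrays of each group averaged. Mycl1 versus control called 4, and in the same 3 settings 1, 13 and 0. Nfib+Mycl1 versus control called 10, and 4 with 1 probe set per gene and 1 with averaged arrays. Nfib+Mycl1 versus Mycl1 called 3, and 12 from group means, 0 with averaged arrays and 5 without the 2 contrary arrays. Nfib+Mycl1 versus Nfib called 3, and 1 with no filter on dim probe sets, 1 with 1 probe set per gene, 10 from group means, 0 with averaged arrays and 7 without the contrary arrays. With 1 probe set per gene the line difference called 9 rather than 20, the responses differing between lines 6 for Nfib rather than 10, 1 for Mycl1 rather than 5 and 5 for both rather than 9, and the changes within lines 30 rather than 86. The Mycl1 response count was 8 without the contrary arrays. With replicate number as a block, which does not pair these samples, the counts were 2 for Nfib, 0 for Mycl1 and 7 for both versus control, 1 for both versus Mycl1, 1 for both versus Nfib, 9, 3 and 8 for the responses to Nfib, Mycl1 and both, and 85 within lines. The causes were not tested.

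Leaving out each array in turn gave 2 to 3 for Nfib, 0 to 5 for Mycl1 and 7 to 12 for both versus control, 1 to 3 for both versus Mycl1, 0 to 5 for both versus Nfib and 20 to 20 for the line difference. It gave 4 to 13, 0 to 7 and 5 to 9 for the responses to Nfib, Mycl1 and both, and 77 to 88 within lines. For Mycl1 versus control, 0 remained without either 3151T4 control array, 1 without 3583T3 Mycl1 replicate 1, either 3583T3 control array or 3151T4 Mycl1 replicate 4, and 2 without 3583T3 Mycl1 replicate 2. For both versus Mycl1, 1 remained without 3583T3 Mycl1 replicate 2 or 3583T3 Nfib+Mycl1 replicate 1. For both versus Nfib, 5 were called without 3583T3 Nfib replicate 2, 1 without 3583T3 Nfib+Mycl1 replicate 1 and 0 without any 1 of the 3151T4 Nfib or Nfib+Mycl1 arrays. The Nfib response count was 4 without 3583T3 control replicate 2 and 6 without either 3151T4 Nfib array. The Mycl1 response count was 0 without either 3583T3 control array or 3151T4 Mycl1 replicate 3, and 1 to 3 without 3583T3 Mycl1 replicate 1 or 2, 3151T4 Mycl1 replicate 4 or either 3151T4 control array. The count for both was 5 without 3151T4 control replicate 4. Signals near the GCRMA floor limit Igfbp5 in 3583T3 and Igfbp6 in 3151T4.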
